A study of Mus musculus with 18 samples.

Results

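The immunoglobulin heavy and light chain genes on the array comprised 224 genes of 65956 transcript clusters. They were all clusters whose only gene symbol was a variable (V), diversity (D), joining (J) or constant segment of a heavy, kappa or lambda chain. Of 228 matching clusters, 4 symbols had a second cluster, and the cluster used was chosen by the highest mean of the 3 group averages. The genes were 120 heavy V, 4 heavy D and 5 heavy constant genes, 94 kappa V genes and 1 kappa J gene. No lambda gene and no kappa constant gene had a cluster of its own. All 224 symbols were found in RefSeq's mouse annotation. Signals of single arrays were given for 119 of the 224 genes, namely 64 heavy V, 52 kappa V and 3 heavy constant genes. The other genes had a group average and SD only.

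RNA of abdominal aorta was measured on 18 arrays, each of a separate male mouse, 10 weeks old at the start. Normal aorta (5 arrays) came from untreated mice. PPE (6 arrays) is aorta after instillation of porcine pancreatic elastase, which induces an aneurysm, and PPE + Lenva systemic (7 arrays) is the same model with oral lenvatinib, an inhibitor of several receptor tyrosine kinases, at 5 mg/kg from day 7 to day 24. Mice were sacrificed on day 28. All groups are ApoE-/- mice by the labels, but the methods of the study give C57BL/6J wild-type animals for elastase aneurysms, and the strain is not settled here. Between PPE and normal aorta, the operation and the elastase cannot be told apart. As no source states a vehicle gavage of the PPE mice, lenvatinib and its gavage cannot be told apart either. The PPE arrays entered both of these comparisons. The arrays' median log2 signals lay between 5.45 and 5.66, RNA integrity numbers ranged from 5.7 to 9.8, and 5 of 8 markers of smooth muscle, the labelled tissue's main cell, were called lower in PPE than in normal aorta, where 2.62% of all clusters were.

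An antibody is built from paired heavy and light chains. In each developing B cell, 1 V segment is joined to a J segment, with a D segment between them in the heavy chain, and the joined exon is spliced to a constant gene, which sets the isotype (IgM from Ighm, IgG from the Ighg genes, IgE from Ighe). Transcripts of a V segment thus come from the B cells that chose it, and a plasma cell, the antibody-secreting end stage of the lineage, makes far more of them than a resting B cell. Segments of a V family are closely related in sequence, so that signals of neighbours on an array are not fully separate measurements.

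Immunoglobulin genes of the heavy and the kappa locus were higher in PPE than in normal aorta, mainly those of 1 V family in each locus. With limma over all clusters, 50 of the 224 genes (22.3%) rose and 0 fell at an adjusted p under 0.05, where 1.41% of all clusters rose. The 50 genes were 30 heavy V genes, 19 kappa V genes and the IgM constant gene Ighm, with log2 fold changes from 0.38 to 6.95 and a median of 4.30. Over all 224 genes the median log2 fold change was 1.52, against -0.02 over all clusters, and 204 genes had a positive difference, 17 a negative one and 3 none. The count of rises depended on single arrays. Leaving out a normal aorta gave 18 rises for replicate 3 and 23 for replicate 2. Leaving out a PPE array gave 27 for replicate 4, 30 for replicate 1 and 33 for replicate 6. Calls over all clusters changed as well. With all arrays 931 clusters rose and 1725 fell. Without these arrays, in the order named, 1413, 1605, 1439, 1818 and 1973 clusters were called in either direction. Without both PPE replicates 1 and 6, an alternative chosen after seeing the data because these arrays were the highest for most of the genes, 13 genes rose and the median over all genes was 1.27. In whole tissue, more cells of a type and more RNA per cell cannot be told apart.

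**Figure D1:**
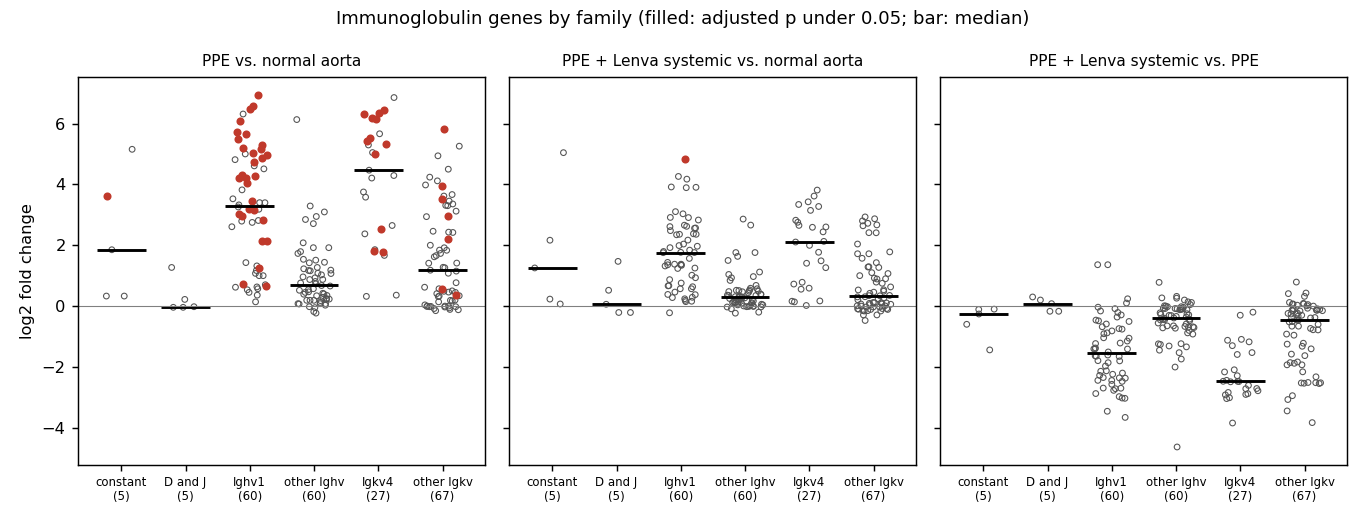
Log2 fold changes of the 224 immunoglobulin genes (y axis) by segment class and V family (x axis, number of genes in brackets) in the 3 comparisons; each point is a gene, filled red at a limma adjusted p under 0.05, and bars are medians. In PPE vs. normal aorta the red points lie mainly in Ighv1 (30 of 60 genes) and Igkv4 (12 of 27 genes), and in PPE + Lenva systemic vs. PPE most points lie below 0 and none is red.

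Ighm encodes the constant part of IgM, the first isotype a B cell makes, and lies on chromosome 12 of mm10 from 113418559 to 113422730 on the minus strand. Its log2 signals were 11.22, 9.23, 6.53, 8.87 and 10.31 in normal aorta, 13.87, 11.13, 10.94, 13.33, 13.93 and 13.82 in PPE, and 10.16, 9.19, 10.76, 11.86, 11.20, 13.77 and 12.84 in PPE + Lenva systemic. PPE replicates 2 and 3 were the lowest of their group and overlapped with normal aorta replicate 1, and treated arrays ranged from the level of normal aorta to that of PPE. The mean was 9.23 ± 1.77 (SD, n = 5) in normal aorta, 12.84 ± 1.41 (n = 6) in PPE and 11.40 ± 1.57 (n = 7) in PPE + Lenva systemic. Ighm rose in PPE vs. normal aorta with a log2 fold change of 3.61 (SE 0.89, limma adjusted p = 0.0312). This call was lost without normal aorta replicate 2, 3 or 4 or without PPE replicate 1, 4 or 6, with a highest limma adjusted p of 0.0919, for normal replicate 3. Between PPE + Lenva systemic and PPE the difference was -1.44 (SE 0.82, limma adjusted p = 0.921).

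Ighg2b (chromosome 12, 113302967 to 113307933, minus strand), the constant gene of IgG2b, was at 6.00, 6.16, 5.50, 6.28 and 10.26 in normal aorta. It was at 16.47, 13.11, 8.94, 12.97, 8.71 and 11.76 in PPE and at 6.21, 9.85, 15.60, 15.42, 8.80, 15.70 and 11.60 in PPE + Lenva systemic. Both PPE groups spanned a wide range of signals, and 3 treated arrays lay close to the highest PPE array while treated replicate 1 lay at the level of most normal aortas. The log2 fold change in PPE vs. normal aorta was 5.15 (SE 1.76, limma adjusted p = 0.108) and in PPE + Lenva systemic vs. normal aorta 5.04 (limma adjusted p = 0.0900). The PPE groups differed by -0.11 (SE 1.61, limma adjusted p = 1), a difference far smaller than the spread within either group, whose SDs were 2.91 and 3.80.

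Ighg1 (chromosome 12, 113325246 to 113339382, minus strand), the constant gene of IgG1, had signals between 5.03 and 5.21 in all 5 normal aortas. It was at 7.62, 5.50, 6.09, 7.68, 6.87 and 7.99 in PPE and at 5.22, 4.86, 6.89, 8.46, 6.96, 6.66 and 5.47 in PPE + Lenva systemic. Every PPE array lay above every normal array, whereas treated replicates 1 and 2 lay close to or below normal aorta. The log2 fold change in PPE vs. normal aorta was 1.85 (SE 0.56, limma adjusted p = 0.0704) and that in PPE + Lenva systemic vs. PPE was -0.60 (limma adjusted p = 0.986). Ighg3 (IgG3) had averages of 3.92, 4.25 and 4.15, and Ighe (IgE), the isotype of allergic responses, had averages of 3.71, 4.04 and 3.78, in normal aorta, PPE and PPE + Lenva systemic. Neither passed the test in PPE vs. normal aorta, both with a log2 fold change of 0.33 (limma adjusted p = 0.423 for Ighg3 and 0.885 for Ighe).

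**Figure D2:**
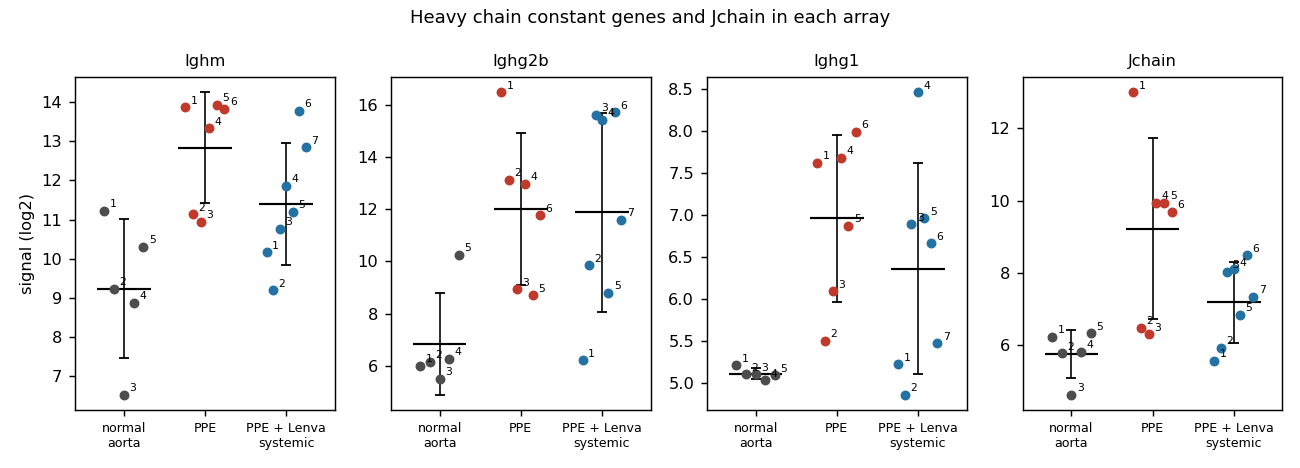
Log2 signal (y axis) of the constant genes Ighm, Ighg2b and Ighg1 and of Jchain, the joining chain of secreted IgM and IgA, in each array of the 3 groups (x axis); points are arrays numbered by replicate, bars are means and whiskers SDs. Ighm, Ighg1 and Jchain have lower means in PPE + Lenva systemic than in PPE, whereas the means of Ighg2b differ by -0.11.

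Constant genes of the other isotypes were measured only in clusters that join several symbols, which are not among the 224 genes. There were 10 clusters joining an immunoglobulin symbol with others. In PPE vs. normal aorta 10 had a positive difference and 4 rose, where 1.41% of all clusters rose. In PPE + Lenva systemic vs. PPE 9 had a negative difference. The cluster holding the kappa constant gene Igkc with J and V segments rose by 2.59 (limma adjusted p = 0.0113). That of Igkv10-96 and Igkv10-94 rose by 7.11 (limma adjusted p = 0.027), the largest log2 fold change of all clusters. Clusters of Ighv1-74 with Gm16710 (5.075, limma adjusted p = 0.00973) and of Igkv4-78 with Igkv4-73 (2.78, limma adjusted p = 0.0303) rose as well. The cluster of Igha, Ighd, Ighg2c and the heavy J segments had a log2 fold change of 2.64 (limma adjusted p = 0.0600), and the cluster of the lambda V, J and constant genes 2.96 (limma adjusted p = 0.112), which did not pass the test.

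All 30 heavy V genes that rose belonged to the Ighv1 family, the largest of the mouse locus. Of its 60 genes 50% rose and 60 had a positive difference, with a median log2 fold change of 3.29. Of the 60 heavy V genes of other families 0 rose, with 19 higher at an unadjusted limma p under 0.05, where 7.57% of all clusters were, and a median of 0.70. Among the larger of these families, Ighv2 had a median of 1.10 over 10 genes, Ighv5 of 0.93 over 11 genes and Ighv3 of 0.10 over 6 genes. The difference between families was not tested. Ighv5-17, which had no array values, had averages of 4.22, 10.35 and 5.72 with SDs of 3.49, 5.79 and 5.35 in the 3 groups, and its log2 fold change of 6.13 did not pass the test (limma adjusted p = 0.261). It was named after its values were seen.

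Ighv1-53 had the largest difference of all heavy V genes with array values. Its log2 signals were 8.82, 5.38, 4.11, 6.61 and 7.09 in normal aorta, 19.49, 11.26, 10.09, 13.15, 12.99 and 13.11 in PPE, and 9.36, 9.99, 14.55, 9.44, 8.86, 10.77 and 9.25 in PPE + Lenva systemic. Every array of both PPE groups lay above every normal aorta, PPE replicate 1 stood far above the rest of its group, and treated replicate 3 above the rest of its own. The log2 fold change was 6.95 (SE 1.38, limma adjusted p = 0.00859) in PPE vs. normal aorta and -3.03 (SE 1.27, limma adjusted p = 0.811) in PPE + Lenva systemic vs. PPE, where it was -1.80 without PPE replicate 1. Ighv1-34 (6.59, limma adjusted p = 0.0326) and Ighv1-12 (6.48, limma adjusted p = 0.00506) followed. Ighv1-26 (6.31, limma adjusted p = 0.0578) did not pass the test. The call of Ighv1-34 was lost without normal aorta replicate 2 or 3 or PPE replicate 1, 4 or 6. Ighv1-12 reached the highest value of the deposited signals, 19.93, in PPE replicates 1, 5 and 6 and in treated replicate 6, and the second cluster of this symbol had a log2 fold change of 1.01.

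The smallest adjusted p of all 224 genes was that of Ighv1-19, with signals of 6.32, 5.78, 5.10, 6.48 and 5.68 in normal aorta, 11.43, 8.06, 9.47, 10.35, 10.14 and 11.46 in PPE, and 6.05, 6.60, 7.97, 9.96, 7.02, 9.14 and 7.81 in PPE + Lenva systemic. PPE and normal aorta did not overlap, and treated arrays lay between them, with replicate 1 within the normal range and replicates 4 and 6 within that of PPE. The log2 fold change was 4.28 (SE 0.67, limma adjusted p = 0.00151). Ighv1-85, whose signals were 3.59 to 5.73 in normal aorta and 6.98 to 13.71 in PPE, rose by 5.50 (SE 0.94, limma adjusted p = 0.00288), Ighv1-55 by 6.07 (limma adjusted p = 0.00236) and Ighv1-75 by 5.64 (limma adjusted p = 0.00835).

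Of the kappa V genes that rose, 12 belonged to Igkv4, of whose 27 genes they were 44.4%, and 7 to other families, of whose 67 genes they were 10.4%. The 7 lay in Igkv3, Igkv6 (2 genes), Igkv9, Igkv10, Igkv14 and Igkv17. The median log2 fold change was 4.47 in Igkv4, 3.41 in the 8 genes of Igkv6, and 1.18 in all kappa families other than Igkv4. Igkv4-80 had the largest difference of the kappa V genes (6.85, SE 2.08) without passing the test (limma adjusted p = 0.0733). Its signals were 6.99, 5.30, 4.48, 6.34 and 12.43 in normal aorta, 19.93, 15.29, 9.08, 12.10, 11.33 and 16.04 in PPE, and 7.66, 12.55, 18.44, 8.86, 11.53, 10.02 and 7.39 in PPE + Lenva systemic. Normal aorta replicate 5 lay above 3 of the PPE arrays, and PPE replicate 1 was at the highest deposited value.

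Igkv4-61 rose by 6.43 (SE 1.55, limma adjusted p = 0.0271), from signals of 8.04, 5.72, 3.77, 7.94 and 9.15 in normal aorta to 16.30, 10.81, 9.95, 13.58, 10.77 and 18.73 in PPE. The groups did not overlap. Treated aortas had 6.69, 8.67, 13.77, 9.82, 10.02, 10.13 and 7.50, so that 4 of them lay above every normal aorta. Igkv4-59 (6.34, limma adjusted p = 0.0228) and Igkv4-54 (6.33, limma adjusted p = 0.0206) rose as well. These 3 calls were lost without normal aorta replicate 2 or 3, for Igkv4-59 and Igkv4-61 also without PPE replicate 1 or 4, and for Igkv4-59 also without PPE replicate 6.

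None of the D and J genes with a cluster of their own rose, where 1.41% of all clusters rose. These genes are too few for that count to set them apart from all clusters. The 4 heavy D genes had log2 fold changes between -0.04 and 0.22 in PPE vs. normal aorta, and the kappa J gene Igkj3 of 1.27 (limma adjusted p = 0.482). Ighd5-7 and Ighd6-1 had identical values, as did Ighv1-62-2 and Ighv1-71, so that 1 measurement stands behind each pair. Of 11 V genes annotated as pseudogenes by RefSeq, 5 heavy V genes had a median log2 fold change of 0.54 with 0 rises, and 6 kappa V genes of 0.29 with 2 rises.

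Along the heavy locus, V genes were split into a nearest, a middle and a farthest group of equal size by distance from Ighm, which ranged from 155.7 to 2591 kb. The median log2 fold change in PPE vs. normal aorta was 0.90 in the nearest group (0 of 40 rose), 2.02 in the middle group (10 of 40) and 2.89 in the farthest group (20 of 40). Among all clusters 1.41% rose. The nearest group held 0 Ighv1 genes. In the middle group, 26 Ighv1 genes had a median of 3.67 (10 rose) and 14 genes of other families one of 0.40 (0 rose). In the farthest group, 34 Ighv1 genes had a median of 3.18 (20 rose) and 6 other genes, which lie between them, log2 fold changes of 0.25 to 0.66 (0 rose). Along the kappa locus, with distances from Igkj3 of 19.64 to 3168 kb, the medians were 1.41 (3 of 31), 4.21 (12 of 31) and 1.23 (4 of 32), the middle group holding most Igkv4 genes.

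**Figure D3:**
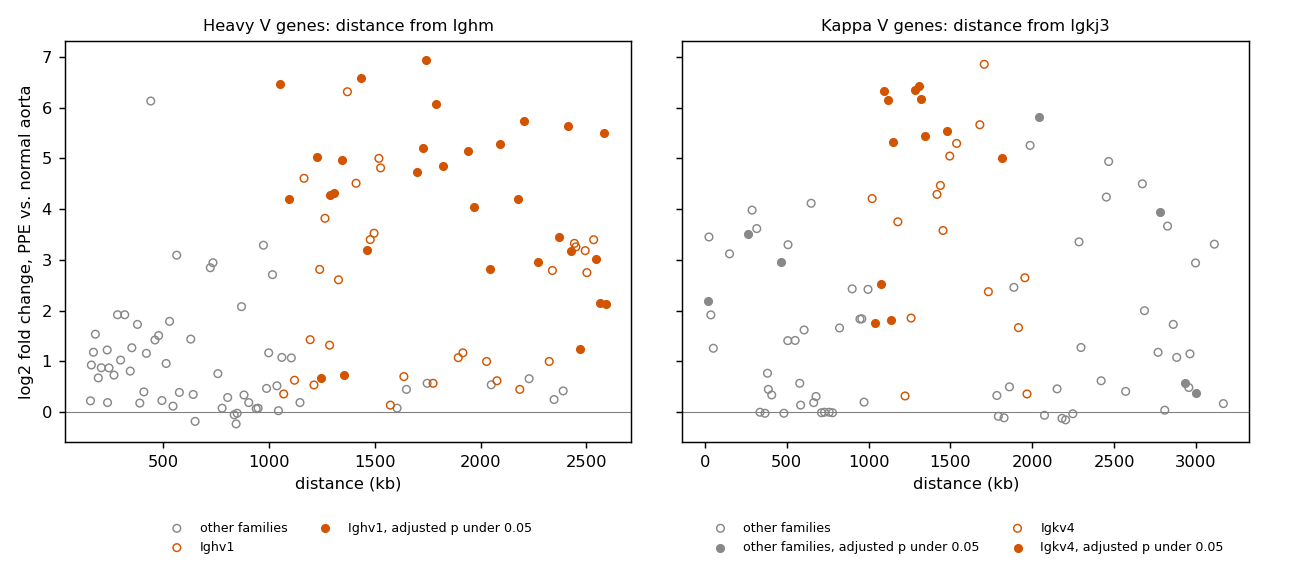
Log2 fold change in PPE vs. normal aorta (y axis) of heavy V genes by distance from Ighm (left) and of kappa V genes by distance from Igkj3 (right, x axes in kb); each point is a gene, orange for Ighv1 or Igkv4 and grey for other families, filled at a limma adjusted p under 0.05. Filled heavy V points are all orange and lie beyond the nearest group, and most filled kappa V points lie in the middle of the locus.

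The arrays of PPE differed widely among themselves. Over the 119 genes with array values, the median difference from the mean of normal aorta was 4.64, 1.15, 1.08, 3.51, 3.45 and 4.75 in PPE replicates 1 to 6. It was 0.05, 0.21, 1.76, 2.06, 1.10, 2.58 and 0.87 in PPE + Lenva systemic replicates 1 to 7, and between -0.50 and 0.26 in normal aorta. PPE replicate 2 thus lay below 3 and PPE replicate 3 below 4 of the treated arrays, and treated replicates 1 and 2 at the level of normal aorta. PPE replicate 1 had the highest signal of all 18 arrays for 55 genes and PPE replicate 6 for 36. The 119 genes are in a table that the authors' overall test selected, so these values describe them and are not support for a difference. In that table, every PPE array lay above every normal array for 62 of the 119 genes (52.1%), and for 6.68% of all 11121 clusters.

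**Figure D4:**
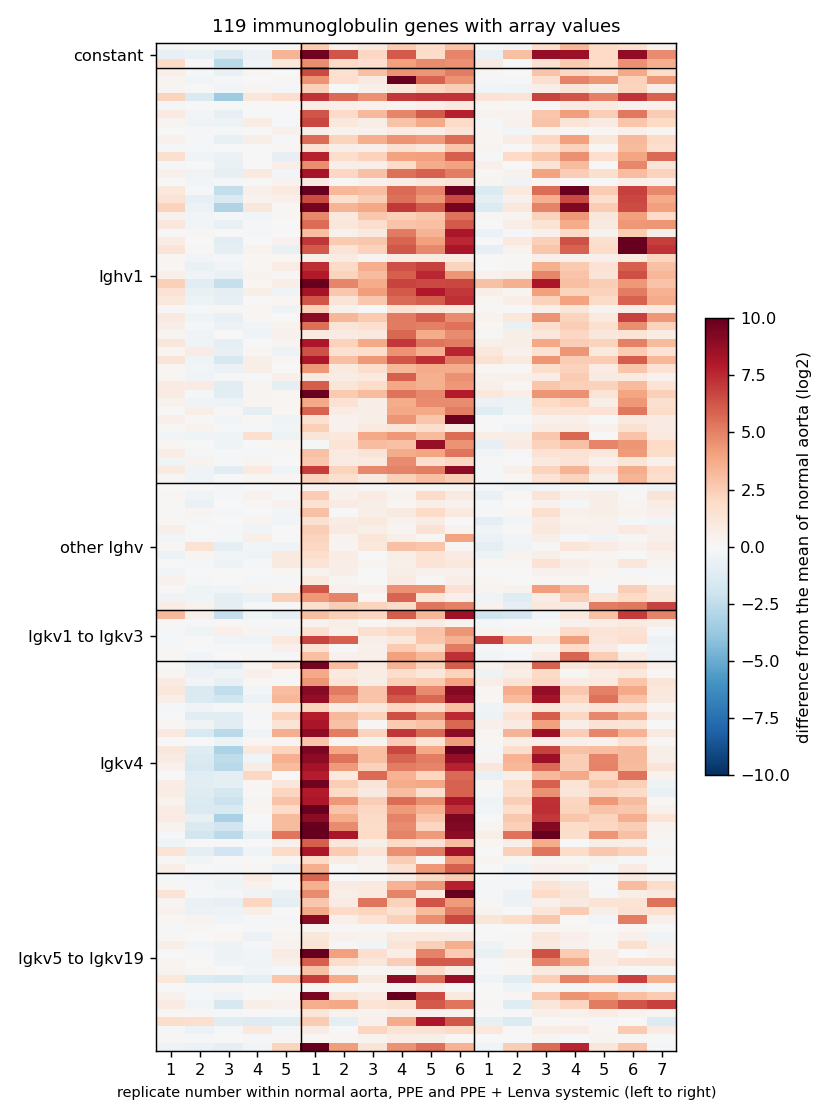
Difference of each log2 signal from the gene's mean in normal aorta (colour, red higher and blue lower) for the 119 genes with array values (y axis, by family) in each of the 18 arrays (x axis, replicate numbers within groups). PPE replicates 1 and 6 hold most of the darkest red, and PPE replicates 2 and 3 and treated replicates 1 and 2 are paler. Most rows of Ighv families other than Ighv1 are pale, whereas Ighv7-3, Ighv9-3 and Ighv11-1 are redder in several arrays.

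The SD within groups was also large. Over all 224 genes the median SD of log2 signals was 0.41 in normal aorta, 1.72 in PPE and 1.24 in PPE + Lenva systemic, against 0.15, 0.14 and 0.15 over all clusters. An SD above 1 was found for 64.3% of the genes in PPE and for 56.7% in PPE + Lenva systemic, where 1.35% of all clusters had one.

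Single V genes were high in single mice. For 27 of the 119 genes (22.7%) the highest of the 18 arrays exceeded the next by more than 2 on the log2 scale, whereas 36 of all 11121 clusters (0.324%) did, those 27 included. The highest array was PPE replicate 1 for 16 of the 27, PPE replicate 6 for 7, PPE replicate 4 for 2, and PPE replicate 5 and treated replicate 6 for 1 each. Igkv6-14 was at 16.68 in PPE replicate 6 and at 10.00 in the next array, and Ighv1-78 was at 13.52 in the same array and at 8.11 in the next. Igkv9-120 was at 18.40 in PPE replicate 1 and at 11.72 in the next array, treated replicate 3. Among the 16 genes highest in PPE replicate 1, PPE replicate 6 was next for 7 and treated replicate 3 for 5. Those 5 were Igkv9-120, Ighv1-53, Igkv4-69, Igkv4-72 and Igkv4-81. PPE replicate 5 was next for 2, and treated replicates 4 and 6 for 1 each. Ighv1-42 was at 17.49 in treated replicate 6 (next 13.53), Ighv1-9 at 16.22 in PPE replicate 4 (next 11.82) and Ighv1-82 at 13.80 in PPE replicate 5 (next 9.99). These genes were named after their values were seen.

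**Figure D5:**
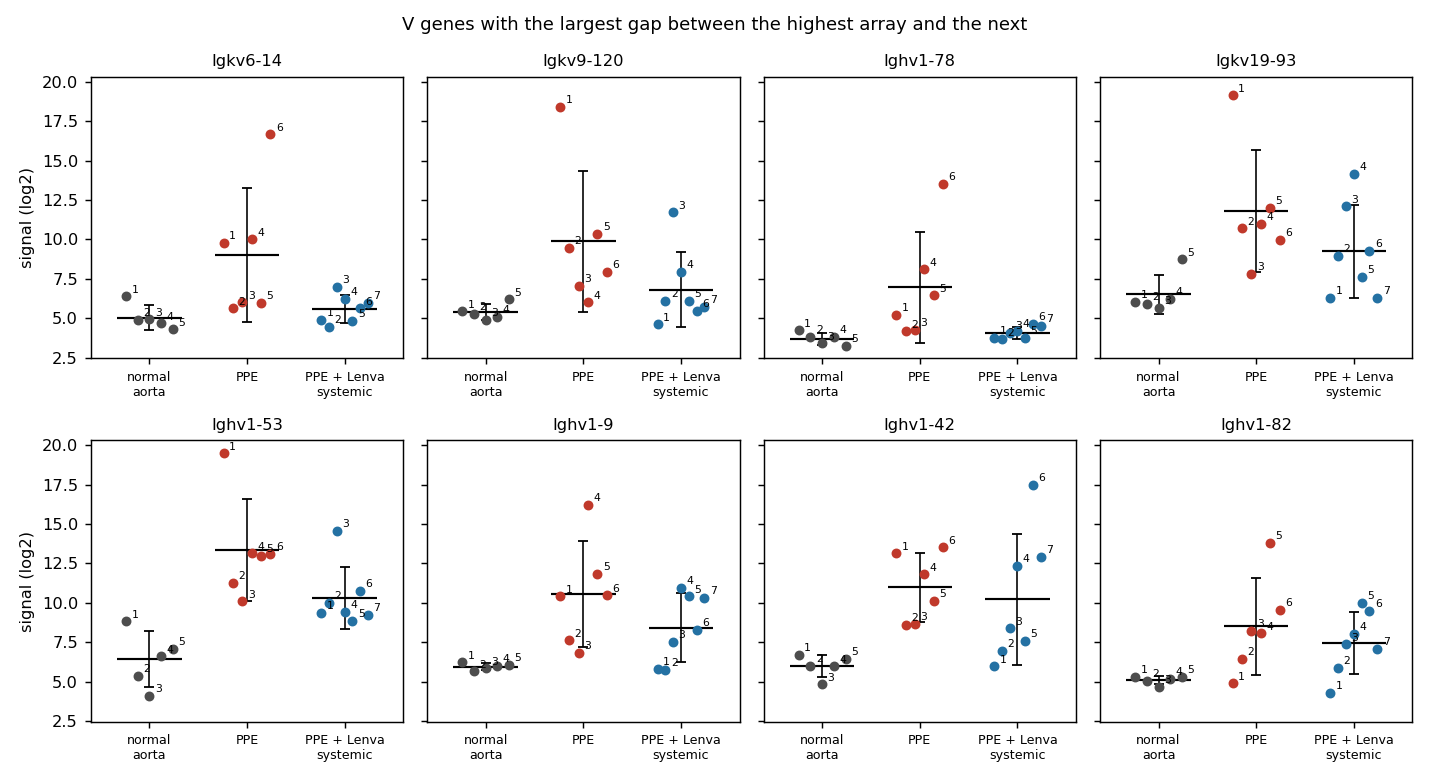
Log2 signal (y axis) in each array of the 3 groups (x axis) for the 8 V genes with the largest gap between the highest array and the next; points are arrays numbered by replicate, bars are means and whiskers SDs. Igkv9-120, Igkv19-93 and Ighv1-53 are highest in PPE replicate 1, Igkv6-14 and Ighv1-78 in PPE replicate 6, Ighv1-9 in PPE replicate 4, Ighv1-82 in PPE replicate 5 and Ighv1-42 in treated replicate 6.

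Within groups the genes varied together, to different degrees. After each group's mean was subtracted, the median pairwise correlation over the 18 arrays was 0.45 for the 119 genes, 0.65 within Ighv1, 0.84 within Igkv4 and 0.43 between heavy and kappa V genes. All genes share the same 18 arrays, and families share sequence. Heavy V genes had a median correlation of 0.63 with Ighm and 0.51 with Ighg2b, and kappa V genes of 0.37 and 0.50. Among 6755 other genes with array values, the one whose deviations were most like the mean of the immunoglobulin genes was Jchain (Pearson's r = 0.919, 18 arrays). Gm4242 (0.889), Txndc11 (0.777), Derl3 (0.772) and Mzb1 (0.755) followed. Next came Gm21717 (0.754), Syvn1 (0.739), n-R5s40 (0.715), Tubb3 (0.711) and Syn1 (0.675). Of these, Gm21717 had a negative log2 fold change in PPE vs. normal aorta (-0.25). Derl3, a component of the degradation of misfolded proteins in the endoplasmic reticulum, and Mzb1, a chaperone of that compartment, are known from plasma cells. Jchain had signals of 4.64 to 6.33 in normal aorta, 6.31 to 13.00 in PPE and 5.58 to 8.49 in PPE + Lenva systemic, and rose by 3.47 (limma adjusted p = 0.0459) in PPE vs. normal aorta.

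In PPE + Lenva systemic vs. PPE, immunoglobulin genes were lower on balance, and no single gene passed the adjusted test. Called at an adjusted p under 0.05 were 0 of the 224 genes and 0% of all clusters. At an unadjusted limma p under 0.05, 66 genes (29.5%) were lower and 0 higher, where 2.40% of all clusters were lower and 3.41% higher. The median log2 fold change was -0.73 over the 224 genes and 0.01 over all clusters, with 194 genes negative, 28 positive and 2 at 0. The count of 66 fell to 42 without PPE replicate 1 and to 43 without treated replicate 1. Without both PPE replicates 1 and 6 it fell to 29, with a median of -0.45.

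The 66 genes comprised 36 heavy V and 30 kappa V genes. The median was -1.56 in Ighv1 (28 of 60 lower), -0.38 in other heavy V families (8 of 60), -2.47 in Igkv4 (16 of 27) and -0.46 in other kappa V families (14 of 67). Constant genes had a median of -0.26 with 0 of 5 lower at an unadjusted limma p under 0.05. Ighv1-85 had signals of 11.63, 6.98, 9.52, 9.68, 9.84 and 13.71 in PPE and of 4.53, 5.21, 6.94, 8.11, 6.15, 8.42 and 6.62 in PPE + Lenva systemic. Its difference was -3.66 (SE 0.86, limma adjusted p = 0.782), and 2 treated arrays, replicates 4 and 6, lay above the lowest PPE array. Ighv1-55 (-3.46), Ighv1-75 (-3.02), Igkv4-61 (-3.84), Igkv15-103 (-3.83), Igkv6-14 (-3.45) and Igkv9-120 (-3.07) had other large differences among the genes with array values, with limma adjusted p from 0.782 for Ighv1-55 to 0.885 for Igkv9-120. Without PPE replicate 6 the difference of Igkv6-14 was -1.91, and without PPE replicate 1 that of Igkv9-120 was -1.37.

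The smallest p was that of Ighv2-1, annotated by RefSeq as a V pseudogene. Its signals were 5.83, 5.80, 5.78, 5.93 and 5.99 in normal aorta, 6.25, 6.20, 6.01, 6.02, 5.98 and 6.08 in PPE, and 5.74, 5.42, 5.59, 5.79, 5.76, 5.65 and 5.49 in PPE + Lenva systemic. Every treated array lay below every PPE array, as for 1 of the 119 genes and 0.270% of the clusters with array values. The difference was -0.46 (SE 0.07, limma adjusted p = 0.185), and the difference of PPE + Lenva systemic from normal aorta was -0.23 (limma adjusted p = 0.0629).

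In PPE + Lenva systemic vs. normal aorta, 1 of the 224 genes rose and 0 fell, where 2.77% of all clusters rose. The gene was Ighv1-12 (4.84, limma adjusted p = 0.0198), whose call was lost without normal aorta replicate 2 or 3 and whose second cluster had a difference of -0.02. At an unadjusted limma p under 0.05, 47 genes were higher and 2 lower, where 8.56% of all clusters were higher and 11.2% lower. The median log2 fold change was 0.59, with 195 genes positive and 27 negative. Every treated array lay above every normal array for 1 of the 119 genes, Ighv1-53, and for 8.63% of the clusters with array values.

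Genes around the antibody response were measured in lists chosen with earlier results known. Of 16 genes of antibody-secreting cells and their secretory machinery, 5 (31.2%) rose in PPE vs. normal aorta and 0 fell. Over all clusters 1.41% rose and 2.62% fell, and the list median was 0.51. Among the genes that rose were Jchain, Slamf7 (2.82), a receptor also found on other leukocytes, and the secretory pathway genes Edem1 (1.04) and Sec11c (0.79). Prdm1 (0.44), the transcription factor of plasma cell differentiation, rose as well. Other markers of these cells had log2 fold changes near 0, namely Sdc1 (0.00), Tnfrsf17 (-0.04) and Irf4 (0.08), which were named after their values were seen. Between the PPE groups, 2 of the 16 (12.5%) were lower at an unadjusted limma p under 0.05, where 2.40% of all clusters were. Among them was Jchain (-2.04, limma adjusted p = 0.812), and the list median was -0.20.

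Of 17 B cell genes, 1 (5.88%) rose in PPE vs. normal aorta, where 1.41% of all clusters rose. It was the adaptor gene Blnk (1.51, limma adjusted p = 0.0316), and the list median was 0.20. Between the PPE groups the B cell list had a median of 0.07, with 10 genes positive and 7 negative. Ms4a1, which encodes CD20, a surface protein of B cells that plasma cells lack, had the largest difference of the list. Its averages were 4.89 in PPE and 6.03 in PPE + Lenva systemic (difference 1.14, limma adjusted p = 0.848). Ms4a1 was named after its values were seen. Genes of the surrogate light chain and receptor diversification act while B cells assemble or mutate their receptors. Of 8 measured, 0 were called in PPE vs. normal aorta. At an unadjusted limma p under 0.05, 1 (12.5%) was lower there, close to the 11.2% of all clusters.

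Of 8 antibody receptor and transport genes, 4 (50%) rose in PPE vs. normal aorta, where 1.41% of all clusters rose. They were the Fc receptor genes Fcgr2b (2.48), Fcgr3 (2.03) and Fcgr4 (2.72), and Fcer1g (3.27), which encodes a signalling chain of Fc receptors. The list's median in PPE + Lenva systemic vs. PPE was 0.14. Of 12 genes for B cell recruitment and survival, 4 (33.3%) rose in PPE vs. normal aorta. Among them were Cxcl13 (3.44), the chemokine of B cell follicles, and Tnfsf13b (1.41), which encodes the survival factor BAFF. Of 127 T cell receptor V segments, which are assembled in the same way in T cells, 2 (1.57%) rose in PPE vs. normal aorta. This share was close to the 1.41% of all clusters. Their median was 0.06, and that in PPE + Lenva systemic vs. PPE was 0.02.

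Markers of neighbouring tissue and blood were set beside these values. In PPE vs. normal aorta 1.41% of all clusters rose and 2.62% fell. Of 4 measured markers of lymph node vessels and stroma, 0 rose in PPE vs. normal aorta, and the defining genes Glycam1 (3.86, 3.75 and 3.88), Madcam1 (3.50, 3.57 and 3.68) and Chst4 (3.57, 3.63 and 3.61) had low averages that hardly differed between normal aorta, PPE and PPE + Lenva systemic. Of 5 fat markers 0 were called, with a median of -0.97 in PPE vs. normal aorta and -0.24 in PPE + Lenva systemic vs. PPE. Of 3 measured blood genes 0 were called. In PPE + Lenva systemic vs. PPE, where 0 of all clusters were called, their median was 1.07. There, 1 of the 3 was higher at an unadjusted limma p under 0.05, as were 3.41% of all clusters. The largest difference of the 3, 1.72, equalled the largest positive log2 fold change of all clusters. Of 6 macrophage markers 5 rose in PPE vs. normal aorta, with a median of 1.96, and their median in PPE + Lenva systemic vs. PPE was -0.04. The smooth muscle markers had a median of -1.70 in the former comparison and of 0.55 in the latter, in which 7 of 8 were positive. The part of tissue composition in the immunoglobulin differences was not tested.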

How the data were processed

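The authors summarised the probes of 18 Mouse Transcriptome Array 1.0 chips with RMA in Transcriptome Analysis Console 4.0.1.36 (named in the submitters' processing notes) on genome build mm10, and deposited log2 signals per array for 11121 clusters. Group averages and SDs (log2, written with decimal commas) were deposited for 65956 clusters, beside the authors' own fold changes, p-values and FDR values, which were not used. The study's own filter left out genes of immunoglobulin chains. The array table holds clusters selected by the authors' overall test. The authors' averages are not plain means and differed from them by up to 1.63 for the genes described here, whereas the SDs agreed within 0.0087.

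Groups were compared with limma 3.58.1 in R 4.3.3 in 1 model of all 18 arrays without covariates, using array values where deposited and averages and SDs elsewhere. The variance prior (2.14 degrees of freedom) came from the SDs of all clusters except 276 without spread, with Benjamini-Hochberg adjustment across all 65956. Outside the array table, 42 clusters were called in PPE vs. normal aorta and 113 in PPE + Lenva systemic vs. normal aorta, 0 of them among the genes described here. The fit was tested on simulated data. Leaving out an array changes the values of genes with array values and, for the others, the adjustment alone.

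The genes and lists were chosen with earlier results of these data known. Genes were named by rule: all constant genes, the 4 V genes of each class with the largest absolute difference among those with array values in PPE vs. normal aorta and in PPE + Lenva systemic vs. PPE, the 4 with the smallest p in the latter, up to 4 genes of each list, and the 10 genes most alike. The list named beyond those in the report was that of T cells. Of 6 measured T cell genes 1 rose in PPE vs. normal aorta, where 1.41% of all clusters rose. No sequences of immunoglobulin segments were used here. The number of arrays limits the precision. The most alike pair of arrays correlated at 0.991, and pairs shared at most 2.31% of their values, so each array was counted. Alternatives covered group means, normalization, arrays in the fit, the variance prior, array weights, dim clusters, clusters tested, thresholds, the cluster of a symbol, a replicate block and leaving out arrays.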

Additional observations from a re-analysis of the deposited data

Results flagged for a closer look

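Among 57 groups of signals (19 named genes in 3 groups), 4 held an array far from the others of its group by Dixon's criterion at the 95% level, where chance alone would mark about 1 in 20 groups. Ighg2b was at 10.26 in normal aorta replicate 5, with the next normal aorta at 6.28. Ighv1-53 was at 19.49 in PPE replicate 1, with the next PPE array at 13.15, and at 14.55 in PPE + Lenva systemic replicate 3, with the next treated array at 10.77. Igkv9-120 was at 18.40 in PPE replicate 1, with the next PPE array at 10.37. Their cause was not tested.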

How the results depend on the processing

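The count of immunoglobulin genes that rose in PPE vs. normal aorta (50) was 85 at an adjusted p under 0.1 and 73 without dim clusters. It was 110 at an unadjusted p under 0.05 with a 2-fold change (thresholds of the study's methods, whose filter itself left out immunoglobulin genes). With the replicate number as a block it was 25. With each array left out it was 18 to 60, and the calls over all clusters in either direction were 1413 to 3534. In PPE + Lenva systemic vs. normal aorta the count (1) was 2 after quantile normalization or median-centring, 0 with only the 2 groups in the fit, 3 without dim clusters, 6 at an adjusted p under 0.1, 41 at the methods' thresholds, 0 with the lowest cluster of a symbol, 0 with the replicate block and 0 to 2 with each array left out. In PPE + Lenva systemic vs. PPE the count of called genes (0) was 1 with array weights, namely Ighv2-1, and 54 at the methods' thresholds, and the 66 genes lower at an unadjusted p were 42 to 86 with each array left out. Shares of all clusters at an adjusted p under 0.1 and at the methods' thresholds are not given here. At an unadjusted limma p under 0.05 alone, 7.57% of all clusters were higher in PPE and 8.56% in PPE + Lenva systemic than in normal aorta. Between the PPE groups 2.40% were lower.

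Without PPE replicates 1 and 6, an alternative chosen after seeing the data, these counts were 13 in PPE vs. normal aorta, 2 in PPE + Lenva systemic vs. normal aorta, and 0 called and 29 lower at an unadjusted p in PPE + Lenva systemic vs. PPE. All medians over the 224 genes stayed on the same side of 0 there.

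Directions that reversed were those of Igkv15-103 in PPE + Lenva systemic vs. normal aorta with deposited averages (1.01), of Ighv1-12 in that comparison with the lowest cluster (-0.02), of Igkv6-14 in that comparison with the replicate block (-0.31), and of Ighg2b in PPE + Lenva systemic vs. PPE after quantile normalization (0.0033), with single arrays left out (-0.77 to 0.84) and without PPE replicates 1 and 6 (0.95). None of the reversed values passed the test. The causes were not tested.

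Same-numbered arrays of different groups had correlations of deviations from -0.58 to 0.49. The labels do not state that the numbers pair the samples, and these correlations cannot decide it. What the number stands for in the block result is thus not known. Spread between mice and the ceiling of 19.93 limit the fold changes of the brightest V genes.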
